A study of Mus musculus with 9 samples.

Results

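Toll-like receptors are sensors of microbial molecules and of debris from damaged cells, and the NLRP3 inflammasome is a cytosolic protein complex that activates inflammatory cytokines. The expression of 10 genes of these systems was examined in the livers of 9 mice: the receptors Tlr1, Tlr2, Tlr4, Tlr7, Tlr8 and Tlr13, the co-receptor Cd14, the adaptor Myd88, the inflammasome sensor Nlrp3 and the protease gene Casp1. The genes were chosen by symbol, not by a threshold on measured values, but with earlier results of these data known. They are 10 of the 17846 genes listed for each mouse. All 10 had enough counts to be tested, among 13619 tested genes.

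Receptors at the cell surface bind bacterial lipids and lipoproteins, while those in endosomes bind nucleic acids. Once bound, most of them recruit the adaptor MyD88, which passes the signal to kinases and on to the transcription factor NF-kB. NF-kB in turn raises the transcription of cytokines and of inflammasome parts, and the assembled inflammasome activates caspase-1, which cuts the precursors of interleukin-1 beta and interleukin-18 and the pore-forming protein gasdermin D. In the liver, most of these genes, though not the adaptor gene Myd88, are best known from Kupffer cells, the resident macrophages, and from monocytes that enter the inflamed organ.

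All mice were male animals of WT genotype, of the strain written C57/BL in the labels and C57BL/6 in the study's methods, and 1 liver library was sequenced per mouse. Control mice (labelled Con) were fed a normal chow diet. NASH mice were fed the Ath diet, an atherogenic diet with added cholesterol and cholate, for 20 weeks to induce non-alcoholic steatohepatitis, and stayed sedentary. NASH+Exercise mice (labelled EXE+Ath diet) were fed the same diet for 20 weeks and ran on a treadmill during the last 8 weeks, after 12 weeks of diet alone. The training was therefore given to mice that ate the Ath diet throughout, and no trained mice on chow were analysed here, so a response to training on chow is outside this comparison. Training, or the matching sedentary period, began at 20 weeks of age. Livers were taken after an overnight fast, and each group had 3 mice.

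Each library held 20086004 to 22495449 estimated counts over 15369 to 16313 genes. Levels are given as CPM, counts scaled to a common library size after TMM normalization, and as TPM where genes are compared with each other, because TPM also divides by transcript length. A gene was called, that is counted as differentially expressed, when its log2 fold change exceeded 1 in either direction and its adjusted p was under 0.05 in the quasi-likelihood test of edgeR, adjusted by Benjamini-Hochberg over all 13619 genes. The tissue label was checked against 6 hepatocyte markers, including albumin, which summed to between 72900 and 142501 CPM in every mouse. With 3 mice in each group, an exact permutation test of a single gene cannot give a two-sided p under 0.1, so the calls rest on the fit across all genes.

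In NASH mice, 9 of the 10 genes were up-regulated compared with Control mice, against 15.3% of all tested genes that were called higher. In these 9 genes the lowest NASH mouse lay above the highest Control mouse, a separation seen in 27.4% of all tested genes. The largest rises were those of Tlr2, by 15.7-fold, and Cd14, by 12.4-fold, and the smallest were those of Tlr4, by 3.69-fold, and Casp1, by 3.32-fold. Myd88, through which these receptors signal, was the exception, with a log2 fold change of 0.04. The median log2 fold change of the 10 genes was 3.21, beside 0.01 for all tested genes. Because the genes were chosen with earlier results of these data known, these contrasts describe the list and do not test it. NASH+Exercise mice stood between the other groups in the means of the 9 genes. Against NASH, 0 of 10 genes were called, where edgeR called only 0.14% of all tested genes.

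**Figure D1:**
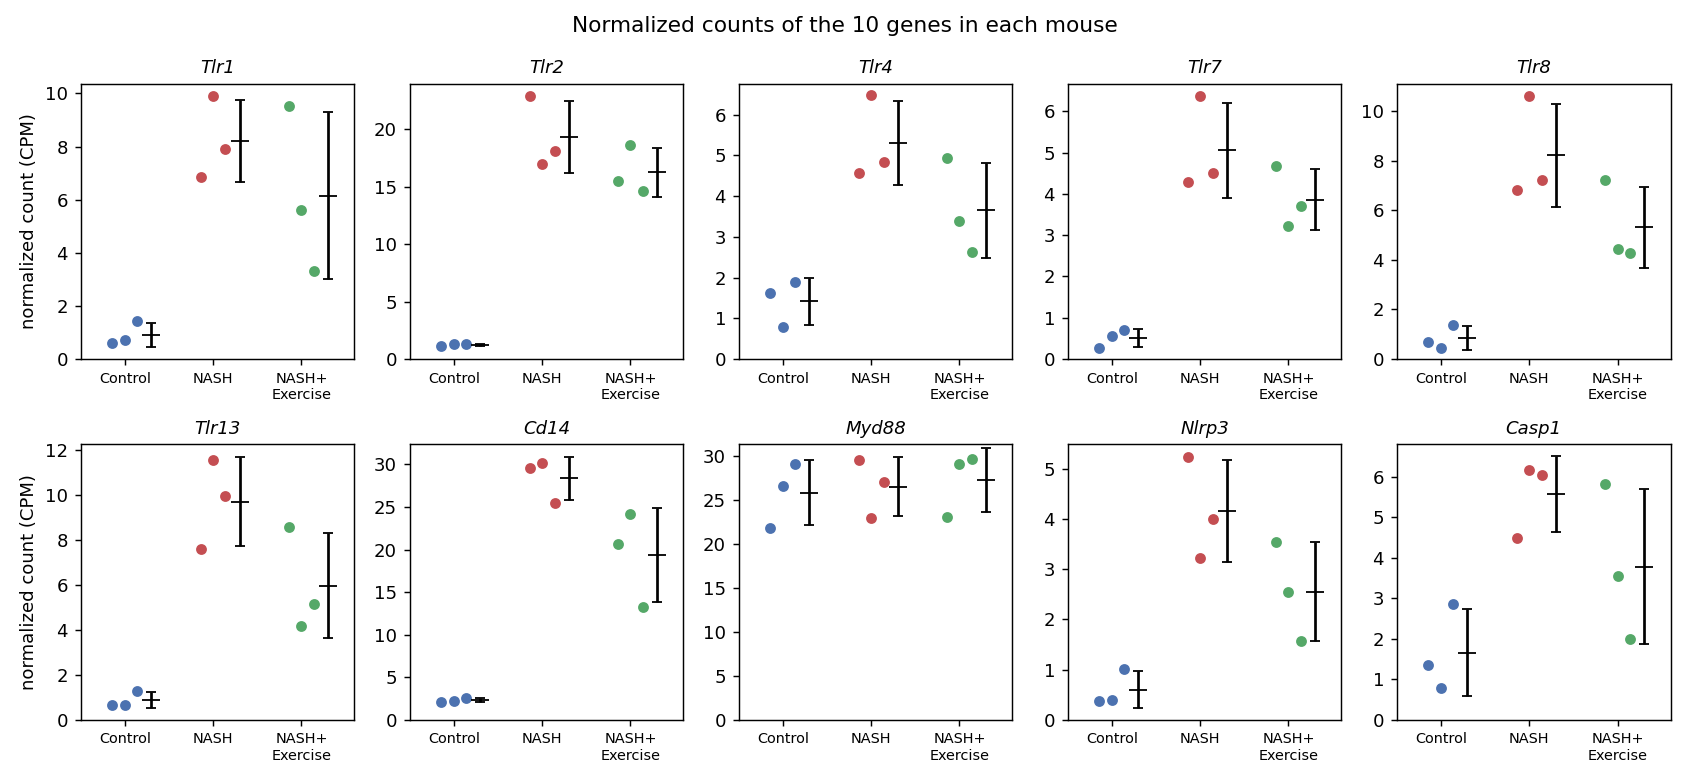
Normalized counts (CPM, linear axes from 0) of the 10 genes in each mouse, with Control in blue, NASH in red and NASH+Exercise in green; the black mark and bar beside each group are its mean and SD (n = 3). In 9 genes all NASH mice lie above all Control mice, while the Myd88 points of the 3 groups lie between 21.8 and 29.6 CPM.

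Promoter sequence of genes that moved together is shown here so that shared letters can be seen beside those of Myd88, which did not move with them. The RefSeq promoter table of GRCm38.p6 held 9 windows of 250 bases before an annotated start, for 7 of the 10 genes. Tlr4, Tlr7 and Cd14 are named only. Each pattern was searched on both strands. The core GAGGAA of PU.1, a transcription factor of myeloid cells, was found in 5 of the 9 windows, 1 each of Tlr1, Tlr8, Tlr13, Nlrp3 and Casp1, beside 23.3% of 32851 windows of all genes. A kappaB motif, the letters bound by NF-kB, was found in a window of Tlr2 and a window of Nlrp3 (7.25% of all windows). The STAT element TTCNNNGAA was found in a window of each of 3 genes, Tlr1, Tlr8 and Myd88 (7.02%), and the interferon response element GAAANNGAAA in Myd88 alone (2.98%), where it overlapped the STAT element. Stretches of 30 bases around a match are printed 5′ to 3′ on the coding strand, with the matched letters in capitals, for the kappaB motifs (Tlr2 and Nlrp3), the PU.1 cores (Tlr1, Tlr8, Tlr13 and Casp1) and the joined STAT and interferon letters (Myd88). They lie at chr3:83841762-83841791 (minus strand, Tlr2), chr11:59541373-59541402 (plus strand, Nlrp3), chr5:64933564-64933593 (minus strand, Tlr1), chrX:167264389-167264418 (minus strand, Tlr8), chrX:106143180-106143209 (plus strand, Tlr13), chr9:5298397-5298426 (plus strand, Casp1) and chr9:119340042-119340071 (minus strand, Myd88).
Tlr2: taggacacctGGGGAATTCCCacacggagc
Nlrp3: ggcttctgcaGGGAACCCCCgggaattctg
Tlr1: aattaaatgttgGAGGAAgtaggagcttga
Tlr8: tataaatgacttTTCCTCtgaattcagttt
Tlr13: aaaaaaagagaaGAGGAAggaaatgtctca
Casp1: cctgcctacttgTTCCTCtcctgtgaatcc
Myd88: gcggagcTTCTCGGAAAGCGAAAgaaggag
The matches began 173 bases before the start in Tlr2, 186 in Nlrp3, 23 in Tlr1, 77 in Tlr8, 83 in Tlr13, 108 in Casp1 and 46 in Myd88. The Tlr1, Tlr8, Tlr13, Casp1 and Myd88 windows held no kappaB match, and the Tlr2 and Myd88 windows held no PU.1 core. A match describes letters, not a bound site, and 7 genes are too few to set such counts against the shares of all windows.

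The surface receptors among the 10 genes rose with the Ath diet, whereas the receptor Tlr5, which is outside this list, was lower (values below). Tlr2 (Entrez Gene 24088, chr3:83836272-83841824), which binds bacterial lipoproteins in pairs with Tlr1 or Tlr6, measured 1.13, 1.28 and 1.28 CPM in Control mice 3, 4 and 29. The NASH mice 5, 19 and 20 had 22.9, 17.0 and 18.1 CPM, and the NASH+Exercise mice 8, 18 and 22 had 15.5, 18.6 and 14.6 CPM. Both groups on the Ath diet were thus far above Control, while the trained mice overlapped the NASH mice. NASH exceeded Control by a log2 fold change of 3.97 (standard error, SE, 0.19, edgeR adjusted p = 1.88e-06), the largest of the 10 genes.

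Its partner Tlr1 (21897, chr5:64924680-64933600) had 0.590, 0.723 and 1.43 CPM in Control mice 3, 4 and 29, and 6.86, 9.89 and 7.91 CPM in NASH mice 5, 19 and 20. Among NASH+Exercise mice it ranged from 3.31 CPM in mouse 22 to 9.51 CPM in mouse 8, from below the lowest NASH mouse to just under the highest. No NASH mouse overlapped a Control mouse, and the log2 fold change was 3.15 (SE 0.43, edgeR adjusted p = 0.000359). The estimated counts of Tlr1 were not whole numbers in 9 of 9 mice, as were those of the related gene Tlr6, whereas those of the other 9 genes were whole in all mice. Fractional estimates arise where a read fits more than 1 gene or transcript, so the level of Tlr1 is uncertain to that extent.

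Tlr4 (21898, chr4:66827551-66846581), the receptor for bacterial lipopolysaccharide, had the second smallest rise of the 9. It measured 1.61, 0.778 and 1.89 CPM in Control mice 3, 4 and 29, 4.57, 6.48 and 4.85 CPM in NASH mice 5, 19 and 20, and 4.93, 3.40 and 2.63 CPM in NASH+Exercise mice 8, 18 and 22. The lowest trained mouse was above the highest Control mouse. The log2 fold change of NASH against Control was 1.88 (SE 0.34, edgeR adjusted p = 0.00167), and it was 0.87, under the threshold on size, by limma on log2(TPM + 1), a scale that understates the change of low genes.

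Cd14 (12475), which hands lipopolysaccharide to the Tlr4 complex, rose far more than the receptor it serves. Control mice 3, 4 and 29 had 2.09, 2.22 and 2.55 CPM, and NASH mice 5, 19 and 20 had 29.5, 30.1 and 25.5 CPM. NASH+Exercise mice 8, 18 and 22 had 20.6, 24.1 and 13.3 CPM, so that the 3 groups did not overlap at all, and Cd14 was the only one of the 10 genes for which this held on the CPM scale. Its log2 fold change was 3.63 in NASH against Control (SE 0.23, edgeR adjusted p = 4.55e-06), while the 95% interval, 3.12 to 4.13, lay wholly above that of Tlr4, 1.13 to 2.64.

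The endosomal receptors of the list rose by like amounts. Tlr7 (170743, chrX:167303380-167330574), a sensor of single-stranded RNA, had 0.268, 0.556 and 0.714 CPM in Control mice 3, 4 and 29, and 4.28, 6.36 and 4.51 CPM in NASH mice 5, 19 and 20. Tlr8 (170744, chrX:167241123-167264329), a close relative whose gene ends 39050 bases from Tlr7, had 0.698, 0.445 and 1.38 CPM in the same Control mice and 6.82, 10.6 and 7.23 CPM in the same NASH mice. Tlr13 (279572, chrX:106143275-106160493), which binds bacterial ribosomal RNA in mice, had 0.644, 0.667 and 1.28 CPM in Control and 7.61, 11.6 and 9.95 CPM in NASH. NASH mouse 19 was the highest of its group for all 3 genes, and no value of NASH overlapped Control.

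The log2 fold changes of NASH against Control were 3.28 for Tlr7, 3.27 for Tlr8 and 3.48 for Tlr13 (standard errors 0.34, 0.38 and 0.36, adjusted p from 4.91e-05 to 0.000123, edgeR). These 3 values lie within 1 standard error of each other. In NASH+Exercise mice 8, 18 and 22, Tlr7 had 4.67, 3.21 and 3.70 CPM, Tlr8 had 7.20, 4.44 and 4.29 CPM, and Tlr13 had 8.60, 4.15 and 5.17 CPM. Mouse 8 reached into the range of NASH for each of them, and mice 18 and 22 lay below it.

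Control counts behind these ratios were small, with 5 to 14 counts of Tlr7 and 8 to 27 of Tlr8 in a Control mouse. In 6 of the 9 genes that rose, every Control mouse had under 30 counts. The SE of these receptors was 0.34 or more, beside 0.19 for Tlr2 and 0.23 for Cd14. The SE did not follow the Control counts alone. Tlr2 is also among the genes under 30, with 21 to 25 counts in a Control mouse. Casp1, with 14 to 56 counts, had the largest SE, 0.47.

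Myd88 (17874, chr9:119335934-119340018), the adaptor, was expressed in Control livers at 17.1 to 25.7 TPM, a level that none of the 6 receptors reached in any mouse of any group (at most 15.5 TPM, Tlr2 in NASH mouse 5). It had 21.8, 26.6 and 29.03 CPM in Control mice 3, 4 and 29, 29.5, 22.9 and 27.1 CPM in NASH mice 5, 19 and 20, and 23.1, 29.03 and 29.6 CPM in NASH+Exercise mice 8, 18 and 22. The 3 groups overlapped. The log2 fold change of NASH against Control was 0.04, with a 95% interval from -0.30 to 0.38 (adjusted p = 0.873, edgeR), so that a rise as large as that of any of the other 9 genes lies outside this interval. This holds relative to the TMM scaling. On TPM, which uses no such scaling, Myd88 was 30.3, 25.9 and 26.9 in NASH mice 5, 19 and 20 and did not overlap Control, a difference of 0.46 on the log2(TPM + 1) scale (adjusted p = 0.0381, limma), where the median of all tested genes moved by 0.34 as well.

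Nlrp3 (216799, chr11:59541569-59566955), the sensor of the inflammasome, had 0.376, 0.389 and 1.02 CPM in Control mice 3, 4 and 29. It had 5.24, 3.22 and 3.995 CPM in NASH mice 5, 19 and 20, and 3.54, 2.55 and 1.56 CPM in NASH+Exercise mice 8, 18 and 22. Here NASH mouse 5 rather than mouse 19 was the highest of its group. Every mouse on the Ath diet exceeded every Control mouse, and the log2 fold change of NASH against Control was 2.78 (SE 0.43, edgeR adjusted p = 0.000689).

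Casp1 (12362, chr9:5298517-5307281), which encodes the protease that the inflammasome activates, had 1.34, 0.778 and 2.86 CPM in Control mice 3, 4 and 29. NASH mice 5, 19 and 20 had 4.49, 6.17 and 6.04 CPM. The NASH+Exercise mice ran from 1.999 CPM in mouse 22, inside the Control range, through 3.54 CPM in mouse 18 to 5.80 CPM in mouse 8. NASH exceeded Control by a log2 fold change of 1.73 (SE 0.47, edgeR adjusted p = 0.0163), and without Control mouse 3 the value was 1.59 and was no longer called (adjusted p = 0.0615, edgeR).

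**Figure D2:**
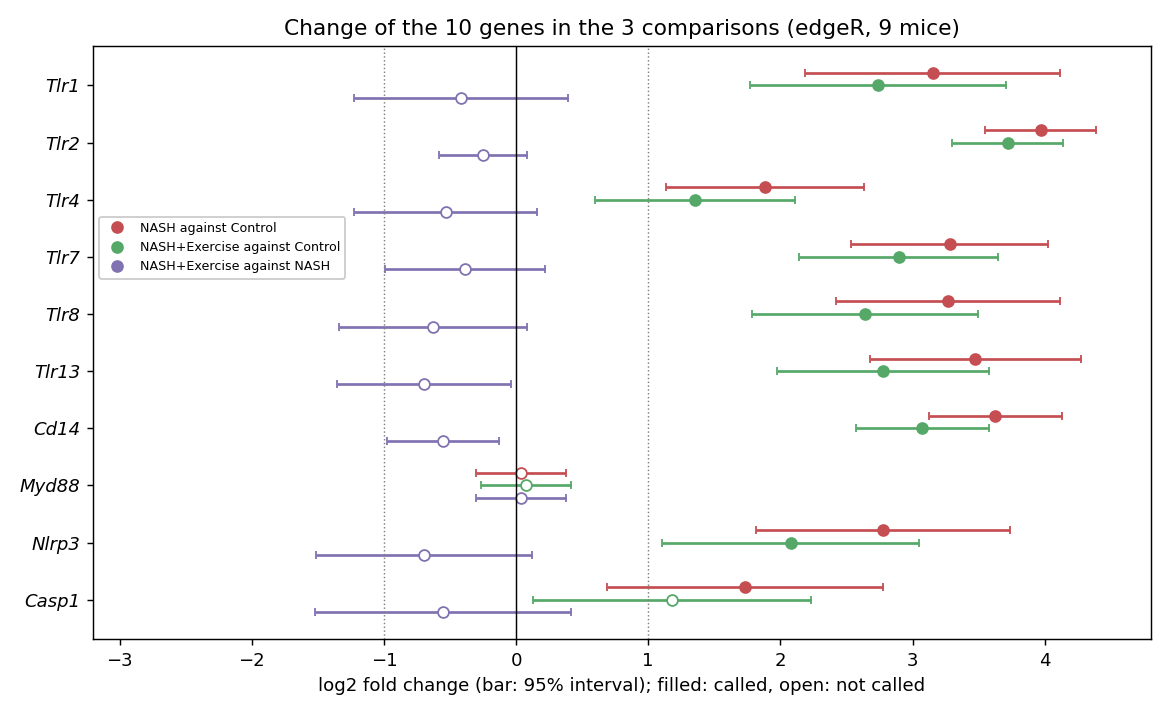
Log2 fold changes of the 10 genes in the 3 comparisons from edgeR on all 9 mice, with 95% intervals as bars; filled points were called and open points were not, and dotted lines mark a log2 fold change of 1 in either direction. In 9 genes the red and green intervals against Control lie to the right of 0, and the violet values of NASH+Exercise against NASH lie between -0.70 and 0.04.

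Training was compared with sedentary NASH to ask whether the raised genes were lower in trained mice. None of the 10 genes was called (0 of 10, where edgeR called 0.14% of all tested genes). DESeq2 on 9 or on 6 mice, which called 1.34% and 1.52% of the genes it tested, also called 0 of them, and so did limma on log2(TPM + 1), with 0.756% of all genes, and on log2(TPM + 0.1), with 0.176%. At an unadjusted p under 0.05, 2 of the 10 were lower (10.7% of all tested genes) and 0 were higher (4.6%). In sign, 9 of the 10 were lower in NASH+Exercise, where 54.9% of all tested genes were, and the median log2 fold change was -0.54, beside -0.03 for all tested genes. Only Cd14 did not overlap between these groups, 1 of 10 genes where 14.9% of all tested genes were lower without overlap, so the share without overlap was no higher than in the background. On TPM, 5 of the 10 (Tlr2, Tlr8, Cd14, Myd88 and Nlrp3) were lower without overlap, beside 37.6% of all tested genes, on a scale where the median of all tested genes moved by -0.26 in log2(TPM + 1).

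The mean of Cd14 was 28.4 CPM with an SD of 2.54 in NASH and 19.3 CPM with an SD of 5.55 in NASH+Exercise (n = 3 each), and the difference did not pass the test. Its log2 fold change was -0.55 with a 95% interval from -0.98 to -0.13 (unadjusted p = 0.0160, adjusted p = 0.230, edgeR). Tlr13 differed by -0.70 with an interval from -1.36 to -0.04 (unadjusted p = 0.0403, adjusted p = 0.302, edgeR), and its groups overlapped through mouse 8.

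The other 7 lower genes had intervals that held 0. Nlrp3 was at -0.70, Tlr8 at -0.63, Casp1 at -0.55, Tlr4 at -0.53, Tlr1 at -0.42, Tlr7 at -0.39 and Tlr2 at -0.25 (log2 fold changes of NASH+Exercise against NASH, adjusted p from 0.384 to 0.631, edgeR). The interval of Tlr2, from -0.59 to 0.08, was the narrowest of these, and that of Casp1, from -1.52 to 0.42, was the widest. For Tlr2, Tlr7 and Cd14 the interval thus leaves out a fall by 1 or more on the log2 scale, and for Tlr1, Tlr4, Tlr8, Tlr13, Nlrp3 and Casp1 it does not. Myd88 was at 0.04 (interval -0.30 to 0.38), with a sign that turned under other scalings, to -0.17 with library size alone and -0.25 by limma on log2(TPM + 1).

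Compared with Control, 8 of the 10 genes remained up-regulated in NASH+Exercise mice, against 10.4% of all tested genes called higher. The same 8 had no overlap with Control (21.5% of all tested genes). Tlr2 had the largest log2 fold change, 3.72 (SE 0.19), and Cd14 was next with 3.07, followed by Tlr7 with 2.89, Tlr13 with 2.78, Tlr1 with 2.74, Tlr8 with 2.64, Nlrp3 with 2.08 and Tlr4 with 1.35 (adjusted p from 4.32e-06 to 0.0152, edgeR). Casp1 was at 1.18 (SE 0.47, edgeR adjusted p = 0.0987) and overlapped Control through mouse 22, and Myd88 was at 0.08 (interval -0.26 to 0.42). This comparison uses the same Control mice as NASH against Control and the same trained mice as the comparison with NASH, so the 3 sets of values are not independent.

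Whether Casp1 and Tlr4 were called in this comparison depended on single mice. Without Control mouse 29, which had the highest Casp1 of its group, Casp1 was called at 1.81 (adjusted p = 0.0176, edgeR), and without NASH+Exercise mouse 22, which had the lowest of its group, at 1.48 (adjusted p = 0.040, edgeR). DESeq2 on all 9 mice also called Casp1, at 1.17 (adjusted p = 0.0452). Tlr4 lost its call without NASH+Exercise mouse 8, at 1.07 (adjusted p = 0.0625, edgeR).

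Of the rise in mean CPM from Control to NASH, the trained mice held between 54.3% in Casp1 and 82.9% in Tlr2 over the 9 genes that rose, with a median of 60.6%. Tlr7 held 73.8%, Tlr1 71.7%, Cd14 65.4%, Tlr8 60.6%, Tlr13 57.8%, Tlr4 57.5% and Nlrp3 54.9%. These shares are ratios of group means without an interval, and they describe how far the trained mice lay from Control rather than test a difference from NASH.

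On TPM, which allows genes to be ranked, the order of the 10 genes changed between chow and the Ath diet. In Control livers Myd88 stood alone at a mean of 20.2 TPM, and the other 9 genes lay between 2.07 TPM for Cd14 and 0.20 TPM for Tlr7. In NASH, Cd14 led with 34.4 ± 5.04 TPM (SD, n = 3), followed by Myd88 with 27.7 ± 2.29 and Tlr2 with 13.4 ± 1.89 TPM. Casp1 had 7.41, Tlr1 5.71, Tlr13 4.81, Tlr8 3.55, Tlr7 2.66, Nlrp3 2.08 and Tlr4 1.33 TPM. Tlr4, the receptor, was therefore the lowest of the 10 in NASH, and its co-receptor Cd14 the highest.

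Few neighbours in these orders had ranges over mice that were apart. In Control, only Myd88 and Cd14 had ranges that did not overlap, 1 of 9 neighbouring pairs. In NASH, 3 of 9 pairs were apart, namely Myd88 above Tlr2, Tlr2 above Casp1 and Nlrp3 above Tlr4. In NASH+Exercise, where Myd88 led with 23.0 TPM, Cd14 had 19.2, Tlr2 9.19 and Casp1 4.25 TPM, and 2 of 9 pairs were apart, Cd14 above Tlr2 and Tlr2 above Casp1. Cd14 and Myd88 overlapped in both groups on the Ath diet. Ranges do not compare genes within a mouse. Within mice, every neighbouring pair in NASH but Tlr7 and Nlrp3 kept its order in all 3 mice. Cd14 was thus above Myd88 in all 3 NASH mice, whereas Myd88 was above Cd14 in 2 of the 3 NASH+Exercise mice. Which of them led in NASH+Exercise was not settled by 3 mice.

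**Figure D3:**
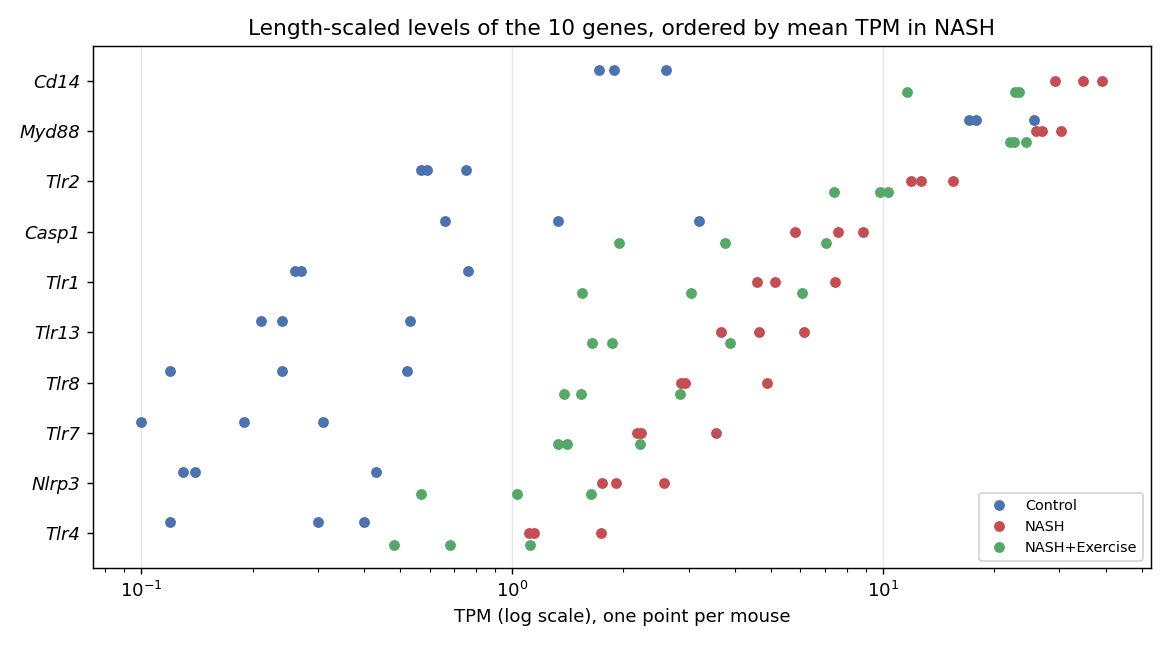
TPM of the 10 genes on a log axis, with a point for each mouse and the genes ordered by their mean in NASH. Control points (blue) of 9 genes lie at 3.20 TPM or lower while those of Myd88 lie at 17.1 TPM or higher, and NASH points (red) of Cd14 and Myd88 overlap.

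Some mice held the same place in their group for most of the genes, but not for all. Control mouse 29 was the highest of its group in 9 of the 10 genes, NASH mouse 19 in 7 of 10 and NASH+Exercise mouse 8 in 7 of 10, while NASH+Exercise mouse 22 was the lowest in 7 of 10. In the other 3 genes NASH mouse 19 was the lowest of its group, and NASH mouse 5 was the lowest in 6 genes and the highest in 3. The genes of a mouse share a library, so these counts are not independent observations. Control mouse 29 was also highest in 11 of 12 macrophage and Kupffer cell markers. NASH mouse 19 was instead the lowest of its group in 9 of these 12 markers. Its summed levels were the highest of its group for the markers of dendritic cells (56.2 CPM), neutrophils (58.4 CPM), T and NK cells (18.9 CPM), stellate cells (314 CPM) and, barely above the 33.8 CPM of mouse 20, monocytes (34.1 CPM). They were the lowest for B cells (3.57 CPM), sinusoidal endothelial cells (103 CPM) and hepatocytes (72900 CPM). In NASH mouse 19, Itgax alone held 36.7 CPM of the dendritic sum, Csf3r 23.1 CPM of the neutrophil sum and Dcn 239 CPM of the stellate sum. The first place of mouse 19 in these sums rested on those genes. Of the other stellate markers, Lrat, Des and Reln were lowest in this mouse and Pdgfrb and Acta2 highest.

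Markers of several immune cell types were also higher in NASH than in Control. Of 12 macrophage and Kupffer cell markers, 11 were called higher in NASH than in Control (15.3% of all tested genes), with a median log2 fold change of 2.73, and their summed level was 143 to 251 CPM for Control mice, 1039 to 1362 CPM for NASH mice and 961 to 1126 CPM for trained mice. All 6 monocyte markers were called higher in NASH, with sums of 1.11 to 3.78, 27.2 to 34.1 and 10.04 to 17.2 CPM in the same 3 groups. Neutrophil markers were called higher in 6 of 8 (sums of 11.3 to 15.9, 52.2 to 58.4 and 35.7 to 48.7 CPM), dendritic cell markers in 5 of 7 (9.90 to 14.3, 39.0 to 56.2 and 21.8 to 39.3 CPM) and T and NK cell markers in 5 of 5 tested (2.79 to 4.03, 14.7 to 18.9 and 10.5 to 12.8 CPM). Of these markers, Camp of the neutrophil list was at 0 in every Control mouse, and no marker was at 0 throughout a group on the Ath diet.

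Other cell types differed less. None of 4 B cell markers, 1 of 5 sinusoidal endothelial and 1 of 6 stellate cell markers was called in NASH against Control, and 0 of 6 hepatocyte markers, of which all 6 were lower. Their sums in Control, NASH and NASH+Exercise were 2.15 to 5.87, 3.57 to 6.89 and 1.56 to 4.02 CPM for B cells, 70.6 to 128, 103 to 157 and 104 to 129 CPM for endothelial cells, and 135 to 257, 232 to 314 and 201 to 238 CPM for stellate cells. The part of these cell types in the result of the 10 genes was not tested. In whole liver, more cells of a type and more RNA per cell cannot be told apart.

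Between NASH+Exercise and NASH, no marker of any of these lists was called, where edgeR called 0.14% of all tested genes. All 6 monocyte markers were lower, 5 of them without overlap (14.9% of all tested genes) and 4 at an unadjusted p under 0.05 (10.7%). Of the macrophage and Kupffer cell markers, 10 of 12 were lower, 5 of them without overlap, and the exceptions were Clec4f and Vsig4. These exceptions do not stand for Kupffer cell markers as a set. The means of Timd4, Marco and Cd5l, also in Kupffer cells, were 7.80, 53.5 and 302 CPM in NASH. In NASH+Exercise they were 6.88, 25.8 and 269 CPM. Of the dendritic cell markers 7 of 7 were lower, 2 without overlap, of the neutrophil markers 6 of 8, 1 without overlap, and of the T and NK cell markers 4 of 5 tested, 3 without overlap. The summed levels of monocyte, neutrophil and T and NK cell markers were lower in NASH+Exercise without overlap, and those of macrophage, dendritic, B, endothelial, stellate and hepatocyte markers overlapped. The neutrophil separation rested on Csf3r, with 18.2 to 23.1 CPM in NASH and 13.2 to 14.9 CPM in NASH+Exercise. The means of the neutrophil markers Ly6g and Retnlg were higher in NASH+Exercise. Whether these markers bear on the lower Cd14 and Tlr13 values of trained mice was not tested.

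To set the genes beside macrophage markers, each CPM value was divided by the geometric mean CPM of Adgre1, Csf1r, Cd68 and Aif1 in the same mouse. These 4 markers were picked from the 12 with the values known, the ratios depend on that pick, and they are a description. The mean of this divisor was 5.27 CPM for Control mice, 40.7 CPM for NASH mice and 30.2 CPM for trained mice. Other markers of the list moved differently. Clec4f had means of 34.5, 96.1 and 108.7 CPM and Vsig4 of 10.5, 42.8 and 44.7 CPM in Control, NASH and NASH+Exercise, so both rose less with the diet in these means and were not lower in trained mice. The ratios were therefore also taken to the geometric mean of all 12 markers (means of 10.8, 62.9 and 52.3 CPM) and of Clec4f and Vsig4 (18.9, 63.7 and 69.6 CPM), both added after the data were seen.

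In NASH against Control, the ratios of Tlr2 and Cd14 were higher and that of Myd88 lower without overlap between mice with all 3 divisors. Tlr2 was 1.92 times as high in NASH with the 4 markers, 2.63 times with the 12 and 4.55 times with Clec4f and Vsig4. Cd14 was 1.53, 2.15 and 3.73 times as high in the same order, and Myd88 was at 0.128, 0.175 and 0.301 times. The ratios of Tlr4 (0.456, 0.656 and 1.17 times) and Casp1 (0.443, 0.628 and 1.12 times) overlapped with each divisor. For the other 5 genes the overlap depended on the divisor. Tlr13 (1.48 times), Tlr7 (1.34), Tlr8 (1.29), Tlr1 (1.21) and Nlrp3 (0.931) overlapped with the 4 markers, Tlr7 and Tlr13 were higher without overlap with the 12, and all 5 were with Clec4f and Vsig4.

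Between NASH+Exercise and NASH, the ratios of Tlr1, Tlr2, Tlr4, Tlr7, Tlr8, Tlr13 and Casp1 overlapped with each divisor, whereas for Cd14, Nlrp3 and Myd88 the overlap depended on it. Cd14 was at 0.931 times with the 4 markers and 0.800 times with the 12, overlapping in both, and at 0.596 times without overlap with Clec4f and Vsig4. Tlr13 was at 0.805, 0.692 and 0.517 times. Nlrp3 was at 0.832 and 0.754 times with overlap and at 0.561 times without it. Myd88 was higher without overlap with the 4 markers (1.41 times), but overlapped with the 12 (1.22 times) and with Clec4f and Vsig4 (0.920 times).

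**Figure D4:**
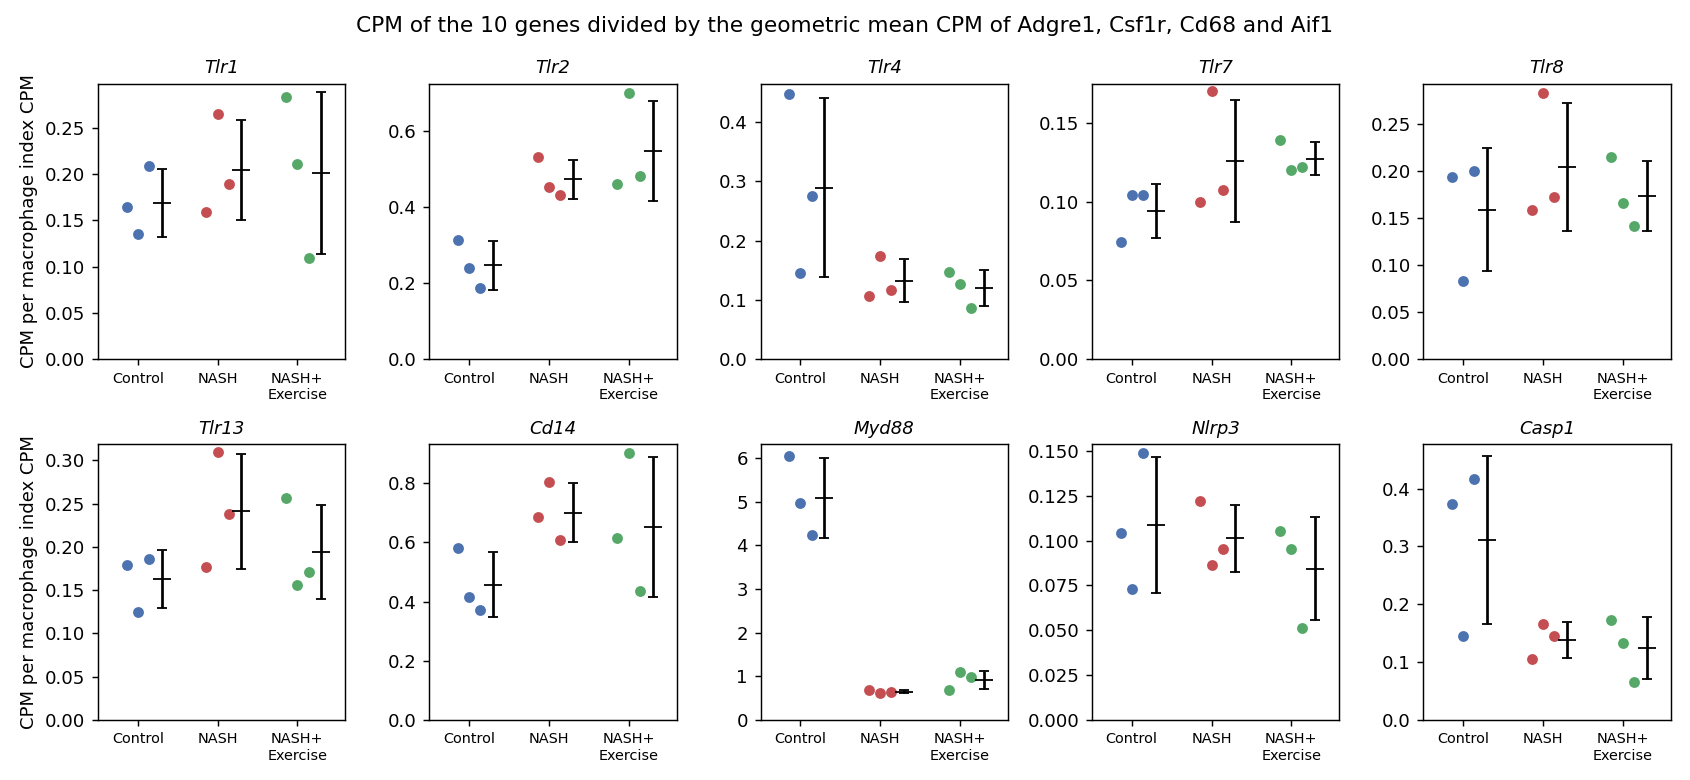
CPM of each gene divided by the geometric mean CPM of the macrophage markers Adgre1, Csf1r, Cd68 and Aif1, for each mouse (linear axes from 0), with mean and SD beside each group (n = 3). The NASH points of Tlr2 and Cd14 lie above those of Control and the NASH points of Myd88 below them, while in the other 7 genes NASH and Control overlap with this divisor.

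Other genes of the Toll-like receptor pathway moved less uniformly. Of 40 such genes, all tested, 13 were called higher and 1 lower in NASH than in Control (15.3% and 3.03% of all tested genes), with a median log2 fold change of 0.35. The largest rises were those of Ticam2, the bridging adaptor that Tlr4 uses beside Myd88, with 4.38 (SE 0.43), and of Cd180, a surface receptor related to Tlr4, with 4.17 (0.56). Ly86, the partner of Cd180, rose by 3.51, the DNA sensor Tlr9 by 3.51, and Tnfaip3, an inhibitor of NF-kB signaling, by 3.37 on the log2 scale (adjusted p from 7.89e-06 to 0.000482 over the 5 genes, edgeR). Ticam2 counts were low in Control, at 0.0537, 0.0556 and 0.204 CPM in mice 3, 4 and 29, beside 2.78, 2.25 and 1.96 CPM in NASH mice 5, 19 and 20.

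The called decrease was Tlr5, the receptor for bacterial flagellin. It had 8.59, 9.29 and 15.5 CPM in Control mice 3, 4 and 29, 1.54, 2.25 and 2.81 CPM in NASH mice 5, 19 and 20, and 2.40, 2.88 and 2.05 CPM in NASH+Exercise mice 8, 18 and 22. Tlr5 thus ran opposite to the 6 receptors above in both groups on the Ath diet, at log2 fold changes of -2.34 in NASH (adjusted p = 0.000171, edgeR) and -2.19 in NASH+Exercise (adjusted p = 0.000391, edgeR) against Control. The remaining 26 genes were not called, among them the co-receptor Ly96, at 0.64 (SE 0.21), and the adaptor Tirap, at 0.39 (0.19), which were looked up by name.

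Against NASH, edgeR called 0 of the 40 genes in NASH+Exercise, beside 0.14% of all tested genes, and DESeq2 and limma also called 0. At an unadjusted p under 0.05, 1 was higher and 3 were lower (4.6% and 10.7% of all tested genes, edgeR). The median log2 fold change of the 40 genes was 0.01. Against Control, 13 were called higher and 1 lower in trained mice (10.4% and 3.07% of all tested genes). Ticam2 was highest at 3.78, then Tnfaip3 at 3.44, Cd180 at 3.43, Irak3, a kinase-like inhibitor of this pathway, at 3.10 and Ly86 at 2.99 (log2 fold changes, adjusted p from 1.36e-05 to 0.00172, edgeR). For Tnfaip3 and Irak3, NASH+Exercise differed from NASH by 0.06 (interval -0.39 to 0.52) and 0.08 (interval -0.50 to 0.65) on the log2 scale.

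Of 28 other inflammasome genes, 27 were tested, and Nlrp10 was under the filter on low counts with at most 0.349 CPM in any mouse. In NASH against Control, 17 were called higher and 3 lower (15.3% and 3.03% of all tested genes), and the median log2 fold change was 1.61. Casp4, the sensor protease for cytosolic lipopolysaccharide, rose most, by 3.74 (SE 0.67), from 0.167 to 0.969 CPM in Control to 3.49 to 11.8 CPM in NASH. Pycard, the adaptor that joins Nlrp3 to caspase-1, rose by 3.47 (0.39), Mefv, the gene of pyrin, by 3.02, Naip1, a sensor of bacterial secretion systems, by 2.86, and Il18bp, a secreted binding protein of interleukin-18, by 2.76 (adjusted p from 3.40e-06 to 0.00211 over the 5 genes, edgeR). Naip1 belongs to a family of near-identical copies, so its share of the reads is uncertain.

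Serpinb1a, an inhibitor of neutrophil proteases and inflammatory caspases, fell by 2.55 on the log2 scale in NASH against Control, Txnip, a thioredoxin-binding protein linked to Nlrp3, fell by 1.72, and Nlrp12 fell by 1.29 (adjusted p from 8.44e-05 to 0.00118, edgeR). The fall of Nlrp12 was by 0.96 with library size alone, where the median of all tested genes moved by 0.36, and then missed the threshold on size. Nlrp12 also missed that threshold by limma on log2(TPM + 1) and log2(TPM + 0.1), at -0.86 and -0.88. By glmTreat it was not called either (adjusted p = 0.245). Among the substrates of caspase-1, Il1b was called higher (log2 fold change 2.201, adjusted p = 0.0091, edgeR), whereas Il18 at 0.72 and Gsdmd at 0.85 passed the adjusted p (0.00855 and 0.000575, edgeR) but not the threshold on size. These 3 genes were chosen for their role after their values were known.

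In NASH+Exercise against NASH, 0 of the 27 were called by edgeR, beside 0.14% of all tested genes, and 0 by DESeq2. The test of limma on log2(TPM + 1) called 1, Txnip, at -1.17 (adjusted p = 0.0318). In sign 24 of 27 were lower, where 54.9% of all tested genes were, and the median log2 fold change was -0.46. At an unadjusted p under 0.05, 7 were lower, namely Txnip, Naip2, Il18bp, Il1rn, Panx1, Naip5 and Mefv (10.7% of all tested genes), and 0 were higher (4.6%). Txnip ran further from Control in trained mice rather than back towards it. It had 337, 334 and 244 CPM in Control mice 3, 4 and 29, 107, 63.7 and 107 CPM in NASH mice 5, 19 and 20, and 49.0, 41.1 and 56.5 CPM in NASH+Exercise mice 8, 18 and 22, without overlap.

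Against Control, 13 of the 27 were called higher and 3 lower in NASH+Exercise (10.4% and 3.07% of all tested genes). Casp4 was at 3.59, Serpinb1a at -3.19, Pycard at 3.10, Txnip at -2.64 and Mefv at 2.45 (log2 fold changes, adjusted p from 3.54e-05 to 0.00381, edgeR). Pycard had 0.268, 0.222 and 0.510 CPM in Control mice 3, 4 and 29, 3.03, 3.73 and 4.59 CPM in NASH mice 5, 19 and 20, and 3.97, 2.79 and 1.999 CPM in NASH+Exercise mice 8, 18 and 22.

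**Figure D5:**
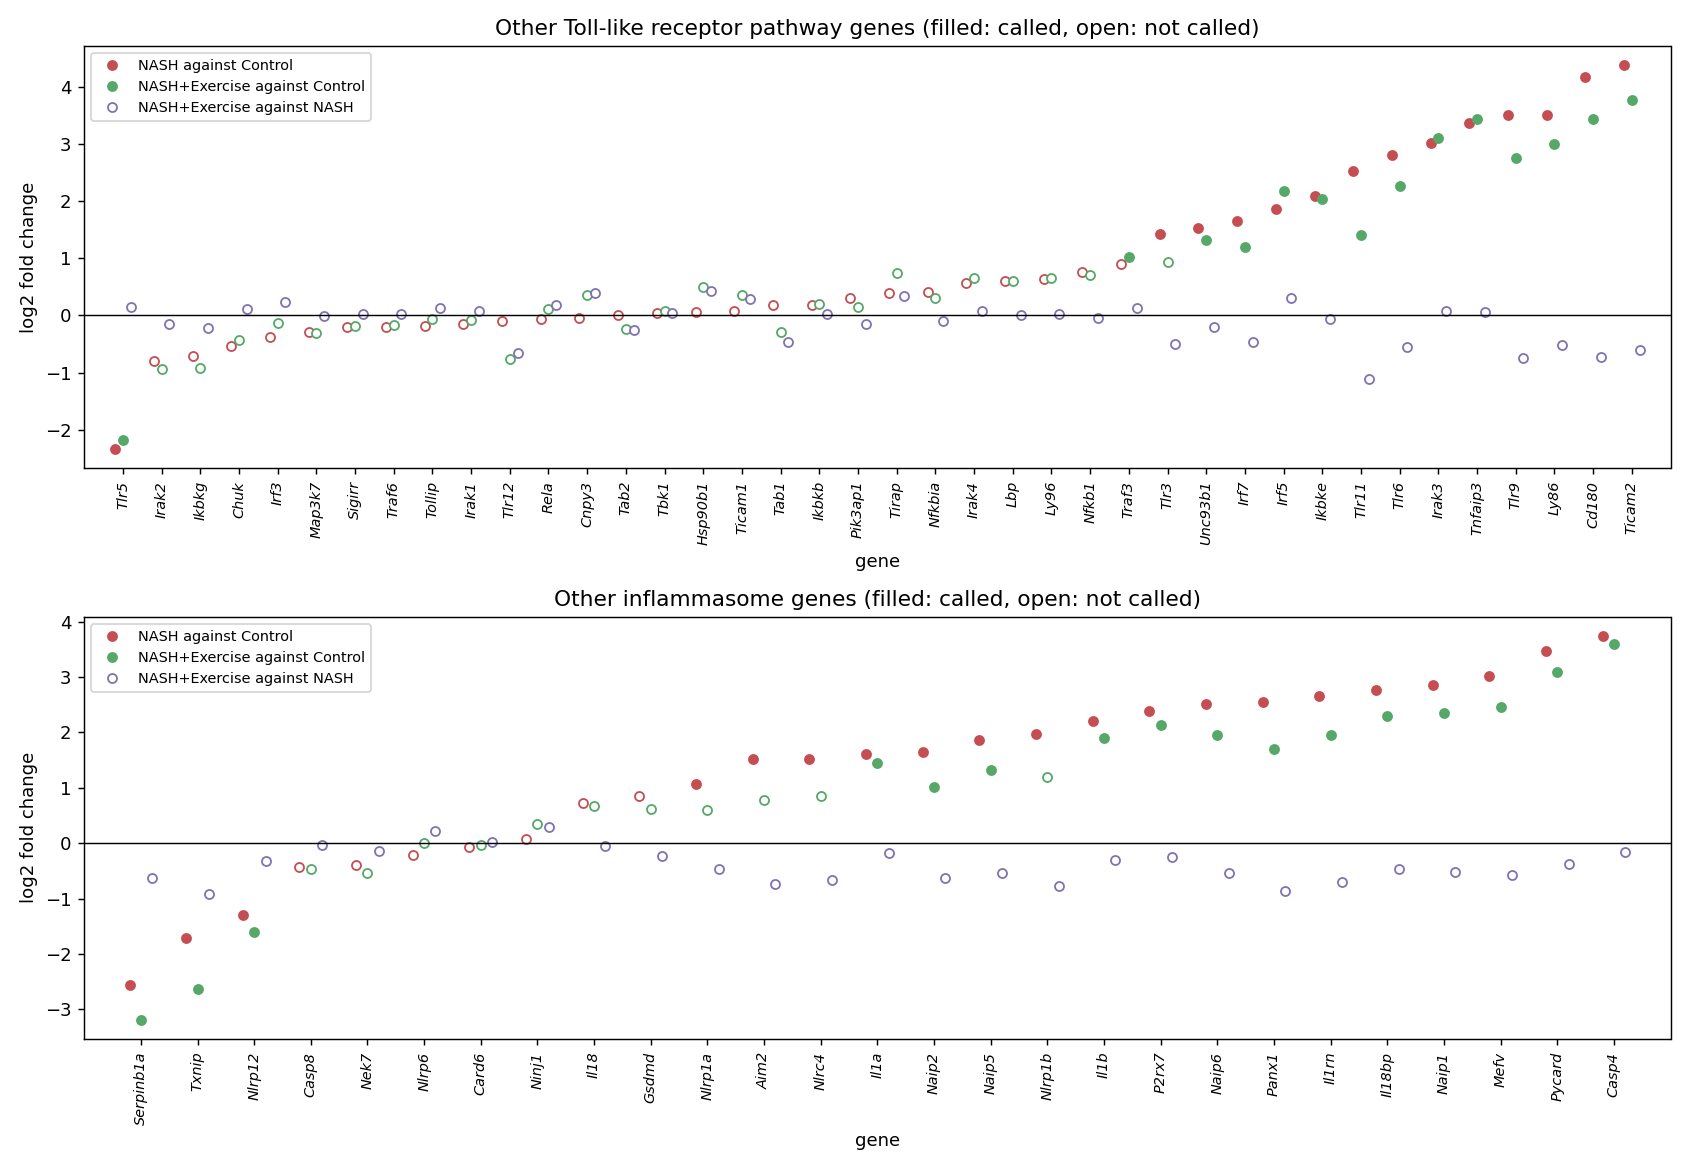
Log2 fold changes of the 40 other Toll-like receptor pathway genes (top) and the 27 tested inflammasome genes (bottom) in the 3 comparisons, ordered by NASH against Control; filled points were called and open points were not. In the top panel 13 red points are filled above 0 and only Tlr5 below it, and in the bottom panel 24 of the 27 violet points lie below 0.

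The pattern over the 9 mice was compared between genes by the root mean square difference of log2 CPM after centring each gene, where a smaller value is more alike. Among the 10 genes, Tlr8 and Tlr13 were the nearest pair at 0.22, then Tlr4 and Casp1 at 0.27 and Tlr7 and Tlr13 at 0.29, while the neighbours on the X chromosome, Tlr7 and Tlr8, were at 0.38. Tlr2 and Cd14 were at 0.32, and the 7 pairs that lay farthest apart all held Myd88. Among the other tested genes, those nearest to the mean of the 10 were Dennd1c (0.11), Fermt3 (0.12), Lcp2 (0.13), Niban1 (0.13) and Fgd2 (0.13). The nearest single genes were Tyrobp to Tlr7 (0.15), Marchf1 to Tlr8 (0.17), Myof to Tlr13 (0.11), Klra2 to Tlr1 (0.18), Slc13a5 to Tlr2 (0.24), Far1 to Tlr4 (0.12), Sirpa to Cd14 (0.15), Ccdc88b to Nlrp3 (0.20), Nin to Casp1 (0.15) and Rnf41 to Myd88 (0.07). Tlr2 had the least close nearest gene of the 10.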

How the data were processed

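Liver RNA-seq of 9 mice was used, 3 per group by the treatment in the labels, with 1 library per mouse. For each gene the authors deposited estimated counts, which are not normalized, together with FPKM and TPM values. The submitters' processing notes name HISAT2 2.1.0, Bowtie2 2.2.5, RSEM 1.2.8 and the build GRCm38.p6, with no role given. The table of all mice and the single files were compared over 285536 values, of which 0 differed. The deposited FPKM values were not tested. The total was 20086004 to 22495449 estimated counts per mouse.

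Counts were rounded to whole numbers and tested with edgeR 4.0.16 in R 4.3.3: filterByExpr (at least 10 counts, total 15), TMM, 1 robust quasi-likelihood fit of the 9 mice by group (6 residual degrees of freedom), and Benjamini-Hochberg adjustment over 13619 genes. The study's methods used DESeq2 with the same thresholds, and DESeq2 1.42.0 and limma 3.58.1 on log2(TPM + 1) or log2(TPM + 0.1) served as alternatives, beside other scalings, no filter, glmTreat with a log2 limit of 1, fits of 6 mice and leaving out each mouse. The standard error is the log2 fold change divided by the root of F, and 95% intervals use the t distribution of the moderated fit. The scripts were tested on simulated data. Precision is limited by the number of mice, 3 in each group, and by depth where Control counts are low, and mouse numbers are not shared between groups.

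Symbols, promoters and coordinates come from RefSeq tables of GRCm38.p6 (17728 of 17846 identifiers had a symbol). The named genes are the 10 members, from the lists of other pathway genes the 5 called genes with the largest rise and every called fall in NASH against Control, and the 5 largest calls in other comparisons, or all where 5 or fewer. The members, lists, markers and motifs were chosen with earlier results of these data known.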

Additional observations from a re-analysis of the deposited data

How the results depend on the processing

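No paired analysis was possible because the mouse numbers are not shared between groups. The 10 genes had 9, 0 and 8 calls in NASH against Control, NASH+Exercise against NASH and NASH+Exercise against Control, and over 19 alternatives these counts were 8 to 9, 0 and 6 to 9. Of the 9 raised genes, 7 kept their call in NASH against Control under every alternative. The exceptions were Tlr4 by limma on log2(TPM + 1) and Casp1 by glmTreat and without Control mouse 3. In NASH+Exercise against Control, Tlr4 and Nlrp3 lost their call by glmTreat and by limma on log2(TPM + 1), at 0.46 and 0.73 in the latter. The sign of Myd88 turned in each comparison. In NASH against Control its log2 fold change was -0.00045 by DESeq2 on 9 mice, and from -0.074 (without Control mouse 3) to 0.10 (without NASH mouse 19) when 1 mouse was left out. In NASH+Exercise against NASH it was -0.17 with library size alone, -0.25 and -0.26 by limma on log2(TPM + 1) and log2(TPM + 0.1), and from -0.037 (without NASH mouse 19) to 0.15 (without NASH+Exercise mouse 8). In NASH+Exercise against Control it ran from -0.031 (without Control mouse 3) to 0.18 (without NASH+Exercise mouse 8).

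Counts over lists moved with the threshold. With an adjusted p under 0.05 alone, Toll-like receptor pathway calls were 23 in NASH (14 with the limit on size) and 22 in NASH+Exercise (14) against Control, and 9 by limma on log2(TPM + 1) in the latter. Inflammasome calls fell to 13 by glmTreat in NASH against Control (20) and were 1 by limma on either TPM scale in NASH+Exercise against NASH (0). Over all tested genes, NASH against Control had 2494 calls, 1309 by glmTreat and 4846 by adjusted p alone. NASH+Exercise against Control had 1836 calls, 773 by glmTreat, 1068 by limma on log2(TPM + 1) and 3423 by adjusted p alone. NASH+Exercise against NASH had 19 calls, 174 and 204 by DESeq2 on 9 and 6 mice, 0 by glmTreat, 103 by limma on log2(TPM + 1) and 0 to 34 when 1 mouse was left out. The cause of these shifts was not tested, except that glmTreat and the adjusted p alone change the limit on size by construction. Library size alone moved the median of all tested genes by 0.36, -0.23 and 0.15 on the log2 scale in NASH against Control, NASH+Exercise against NASH and NASH+Exercise against Control. Depth limits the Control values, where 6 of the raised genes had under 30 counts in every mouse.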
